A study of Mus musculus with 2 samples.

Results

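Brain endothelial cells line the blood vessels of the brain and were taken here as single cells from the lateral hypothalamic area, a region known for its part in feeding and arousal. A cell counted as endothelial when it held 5 or more unique molecular identifiers (UMIs, each standing for 1 captured transcript) of Cldn5, Flt1, Ly6c1 and Slco1c1 together, at most 2 of the mural genes Rgs5, Vtn and Kcnj8, and at most 3 of the neuronal genes Snap25 and Syt1. The rule chose 70 of 6906 kept cells, 33 of 3276 in the library labelled male and 37 of 3630 in the library labelled female. These are 1.01% of kept cells (exact Clopper-Pearson 95% interval 0.694 to 1.41) and 1.02% (0.719 to 1.40). The intervals cover counting error only.

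Both libraries came from freshly dissected tissue of C57BL/6 mice at postnatal day 30, with no treatment or genotype named in the labels. The library labelled male pooled 3 animals and the library labelled female pooled 2, and all were littermates. Slices were cut at 225 µm, dissociated by trituration, passed through a 60 µm mesh and loaded on the 10x Genomics Chromium with v2 chemistry, a droplet assay that counts UMIs. Each label has 1 library, so nothing separates sex from pool. The labels are contradicted by sex-linked RNA: in the endothelial cells, Xist, the long RNA that silences 1 X chromosome in females, had 121 UMIs in the library labelled male and 0 in the library labelled female, and Y-linked Ddx3y had 0 and 19. Pairs of values below give the library labelled male first.

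The cells that line brain vessels form the blood-brain barrier. Tight junctions seal the space between neighbouring cells, so that nutrients cross through carriers and receptors, and efflux pumps return many lipid-soluble compounds to the blood. Wnt/beta-catenin signalling from the surrounding tissue is known to induce and hold this state, and pericytes, a mural cell type on the outer side of capillaries, share the basement membrane with the endothelium.

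The gate left most cells with endothelial RNA outside. Of kept cells, 157 and 165 held 5 or more UMIs of the endothelial gate genes, and 116 and 120 of these missed the gate on the mural limit alone. Those cells, called here cells with both marker sets, held a median of 12 and 15 mural gate UMIs, with a range of 3 to 92 and 3 to 87, beside a median of 31 and 27 endothelial gate UMIs. The members made up 21.0% and 22.4% of all cells with 5 or more endothelial gate UMIs. Among the members, 21 and 25 held no mural gate UMI, and 4 and 3 held the permitted 2. Among cells within the mural and neuron limits there was a gap at the endothelial limit: the highest cells just outside held 4 and 2 UMIs, the lowest members 6 and 9, the next 11 and 13, and the median members 21 and 27. The gap was narrow in the library labelled male. Outside it, 5 and 2 such cells held 2 to 4 UMIs. At the mural limit there was none: 8 and 11 cells with both marker sets held 3 mural gate UMIs, 1 over that limit.

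**Figure D1:**
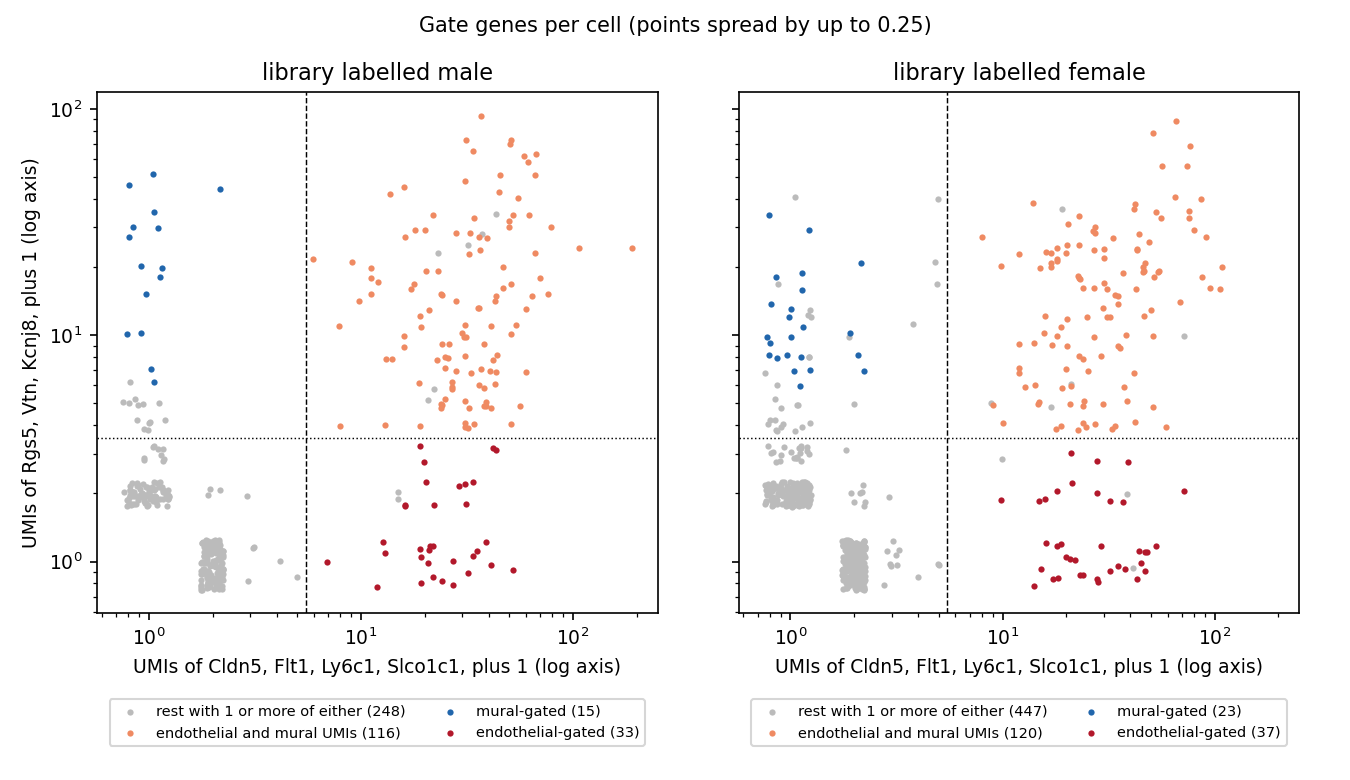
UMIs of the endothelial gate genes (x axis) and of the mural gate genes (y axis) in each kept cell that held at least 1 of either, plus 1, on log axes; the dashed line marks the endothelial limit, the dotted line the mural limit, and each point is a cell. The 33 and 37 endothelial-gated cells lie below the dotted line and right of the dashed one, and the 116 and 120 cells above them carry both marker sets.

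The members were shallower than other cells. They held 94795 and 133617 UMIs in all, with a median of 2469 and 3311 UMIs and 1328 and 1700 genes per cell, against 6019 and 6518 UMIs and 2766 and 2964 genes in the other kept cells. Mitochondrial genes took a median of 8.34% and 9.01% of their UMIs, against 8.69% and 9.36%. Depth differed by class: the median was 2286.5 and 2722 UMIs in cells gated on astrocyte genes and 9156 and 9591 in cells gated on neuron genes. The libraries shared 18 cell barcodes, none of them members. The label was checked against markers that the gate did not use. UMIs of all 10 such endothelial markers, among them Pecam1, Cdh5, Tek and Emcn, were found in both libraries, with a summed level of 8735 and 8068 CPM (summed UMIs per 1000000) against 260 and 242 CPM in the other kept cells. Of the 7 mural markers outside the gate, 3 and 4 were found with 4 and 6 UMIs in all, a summed level of 42.2 and 44.9 CPM against 4196 and 5469 CPM in mural-gated cells, and Pdgfrb, Acta2 and Tagln had 0 in both libraries. The mural genes of the gate, which it limits to 2 UMIs per cell, are not counted here. Markers expressed with them had to come out low in the members and high in mural-gated cells. In the other kept cells the 7 markers stood at 76.7 and 98.6 CPM. Of the 7 fibroblast markers 1 was found, with 1 and 2 UMIs, and Dcn, Lum, Col1a1, Col1a2 and Col3a1 had 0. RNA of other cells was present: oligodendrocyte markers gave 363 and 751 UMIs, at least 1 in every member, and hemoglobin RNA took up to 61.8% and 42.2% of the UMIs of a member. Summed oligodendrocyte precursor markers stood at 148 and 367 CPM against 69.1 and 69.9 CPM in the other kept cells. They rested on 14 and 49 UMIs in 5 and 13 members. Astrocyte markers stood at 264 and 479 CPM against 228 and 314 CPM, from 25 and 64 UMIs in 15 and 14 members. Microglia markers were lower, at 105 and 22.5 CPM against 181 and 78.4 CPM, as were summed neuron and oligodendrocyte markers. The neuron markers include Snap25 and Syt1, which the gate limits to 3 UMIs per cell, so their lower sum was partly fixed by the gate.

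Counts were summed over the members of each library and compared with the sum over the other kept cells by edgeR's quasi-likelihood test with the library as a block, 4 sums that leave 1 residual degree of freedom. The p-values rest on 2 pools of littermates, not on separate animals. Their spread is shared across genes, so they do not measure how far a single gene's difference varied between the pools. Of 14258 genes tested, 3256 (22.8%) passed a Benjamini-Hochberg adjusted p of 0.05, 1310 (9.19%) higher and 1946 (13.6%) lower in the members. DESeq2 called 1918 (13.5%), of which 1118 (7.84%) were higher and 800 (5.61%) lower, so that 58.3% of its calls were higher against 40.2% of edgeR's. The median of all log2 fold changes was -0.58 by edgeR, -0.34 by DESeq2 and 0 by edgeR with the genes at 0 UMIs in 1 arm set at their bound. Because the cells were chosen by their markers, genes that are expressed with those markers had to come out higher, and the calls describe the make-up of the cells chosen. The other kept cells include the cells with both marker sets, which gave 2.24% and 2.14% of their UMIs. With comparison cells that held no endothelial gate UMI, the log2 fold change of Ushbp1 was 10.75, that of Klf2 7.88 and that of Slco1a4 10.48, against 6.04, 5.56 and 5.53.

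The 20 genes with the largest folds were taken among those called, higher in both libraries and at 100 CPM or more in the members of both. They spanned log2 fold changes of 5.52 to 6.04, and DESeq2 called each of them. Several kinds of gene stood among them: receptors and surface proteins of vessels, junction proteins, carriers and transcription factors. Emcn, an endothelial sialomucin, stood at 443 and 322 CPM against 6.84 and 6.06 CPM. Tie1, an orphan receptor that works with the angiopoietin receptor Tek, stood at 295 and 254 CPM against 5.51 and 5.95 CPM. Ly6a, a membrane-anchored surface protein also known as Sca-1, stood at 1234 and 1055 CPM against 20.1 and 23.1 CPM. In all 20 genes both member values lay above both values of the other kept cells. The choice of genes higher in both libraries all but fixed this. Cdh5, the VE-cadherin of endothelial adherens junctions, stood at 422 and 539 CPM against 11.3 and 9.58 CPM, and the tight junction genes Ocln and Lsr at 158 and 254 CPM against 5.42 and 3.85 and at 401 and 292 CPM against 7.33 and 5.28, respectively. Klf2, a transcription factor induced by blood flow, stood at 1255 and 1399.5 CPM against 29.6 and 25.8 CPM, with a log2 fold change of 5.56 ± 0.23 (SE), adjusted p = 2.44e-128 by edgeR. Gata2 and Foxq1, 2 further transcription factors, stood at 116 and 262 CPM against 2.80 and 4.42 and at 485 and 307 CPM against 11.2 and 5.91, respectively. Among carriers, Slco1a4, a transporter of organic anions, stood at 2036 and 1744 CPM against 43.3 and 36.8 CPM. Slc40a1, the iron exporter ferroportin, stood at 464 and 382 CPM against 7.95 and 7.63 CPM. Car4, a carbonic anhydrase on the surface of capillaries, stood at 1055 and 561 CPM against 21.5 and 11.5 CPM. The levels of Car4, Pltp and Srgn were lower in the library labelled female, 636 against 1339.7 CPM for Pltp, a phospholipid transfer protein, and 367 against 569.6 CPM for Srgn, a proteoglycan core protein, and Gata2 was higher there. Gkn3, known as a marker of arterial endothelium in the mouse brain, stood at 253 and 149.7 CPM against 2.62 and 3.97 CPM, but 19 of its 24 UMIs and 11 of its 20 came from 1 cell of each library. The others were Ushbp1, Gm694, She, Paqr5 and Sp100, with 127 to 401 CPM in the members.

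**Figure D2:**
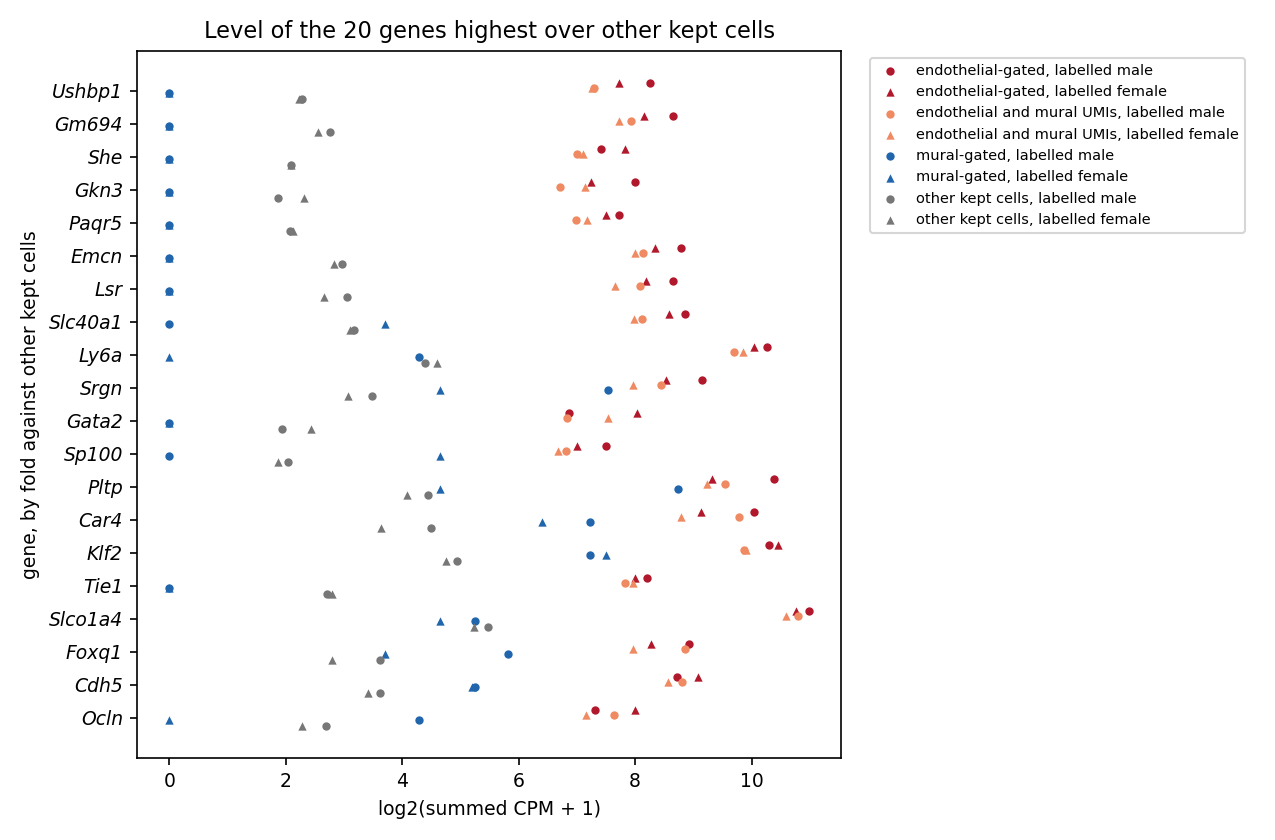
Level of the 20 genes with the largest folds (y axis) as log2 of summed CPM plus 1 (x axis), in 4 sets of cells (colours) and 2 libraries (circles labelled male, triangles labelled female). In each gene both endothelial-gated points and both points of the cells with both marker sets lie right of the mural-gated and other kept cells.

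Promoters of these 20 genes, which were chosen for the size of their folds, are shown as description. The ETS, SOX, KLF and TCF/LEF factors are known regulators of endothelial genes. Whether the 20 share a regulator was not tested. RefSeq windows of GRCm38.p6, 250 bases before to 50 after a start site, were found for 16 of the 20 genes (Gm694 under the name Srarp), and Slc40a1, Ly6a, Foxq1 and Cdh5 had no entry. Either strand was searched for the ETS words ACCGGAA and ACAGGAA, the TCF/LEF word ATCAAAG, the SOX word ACAATGG and the KLF word GGGTGTG. An ETS word stood in 4 of the 20 windows of these genes (20%) and in 12.003% of all 32851 windows. The KLF word stood in 2 (10.0%, and 7.95% of all), the TCF/LEF word in 1 (5.0%, and 3.73%) and the SOX word in none (3.66% of all). The 4 promoters with an ETS word follow, 250 bases up to the start site and 5′ to 3′ on the gene's strand, with the words in capitals. They lie at chr3:137340828-137341077, plus strand (Emcn), chr4:118489850-118490099, minus strand (Tie1), chr10:62527446-62527695, minus strand (Srgn) and chr8:71395802-71396051, minus strand (Ushbp1). Emcn holds the reverse complement of ACAGGAA at -173 and -67, counted from the start site to the first base of the word. Tie1 holds the reverse complement of ACAGGAA at -209 and of GGGTGTG at -72. Srgn holds ACCGGAA at -53 and again at 34 past the start, which is not printed. Ushbp1 holds the reverse complement of ACAGGAA at -63. No words overlap, and a match is a run of letters, not a binding site.
Emcn: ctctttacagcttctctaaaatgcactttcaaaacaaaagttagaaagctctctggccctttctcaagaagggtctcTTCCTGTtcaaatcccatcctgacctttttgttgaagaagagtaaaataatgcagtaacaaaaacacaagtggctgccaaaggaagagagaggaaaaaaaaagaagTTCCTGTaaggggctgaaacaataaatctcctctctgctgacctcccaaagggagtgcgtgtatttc
Tie1: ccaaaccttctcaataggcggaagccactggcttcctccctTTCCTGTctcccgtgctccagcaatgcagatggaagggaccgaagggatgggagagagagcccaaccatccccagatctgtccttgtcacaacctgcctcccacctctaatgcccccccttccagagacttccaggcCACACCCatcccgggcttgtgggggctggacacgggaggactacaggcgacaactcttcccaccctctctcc
Srgn: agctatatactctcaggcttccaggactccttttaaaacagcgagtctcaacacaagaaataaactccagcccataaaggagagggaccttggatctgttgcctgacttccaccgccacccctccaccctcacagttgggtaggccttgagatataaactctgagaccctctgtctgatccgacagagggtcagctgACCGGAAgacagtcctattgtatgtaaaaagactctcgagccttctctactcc
Ushbp1: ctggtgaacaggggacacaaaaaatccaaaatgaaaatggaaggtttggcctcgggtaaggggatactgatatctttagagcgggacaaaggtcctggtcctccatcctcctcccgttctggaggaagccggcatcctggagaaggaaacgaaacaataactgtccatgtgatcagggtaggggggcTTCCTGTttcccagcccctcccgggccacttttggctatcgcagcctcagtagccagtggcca

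The 6 genes with the lowest folds had no UMI in any member, and 5 of them are given here, neuronal or widely expressed in neurons. Slc17a6, the vesicular glutamate transporter of many hypothalamic neurons, stood at 156 and 146 CPM in the other kept cells, Spock3 at 162 and 152, Hs6st2 at 140.04 and 138, Nptx1 at 134 and 129 and Dmtn at 119 and 109.6. Against a floor of 3 counts over both libraries, Spock3 was at least 11.9-fold lower in the members and Dmtn at least 8.66-fold. edgeR called these 5, and DESeq2 called none of them (adjusted p = 0.291 to 0.336).

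Junction genes of the endothelium were higher in most cases. Of 16 tested, 11 rose and 2 fell by edgeR, with a median log2 fold change of 3.22. Over all genes tested, 9.19% rose and 13.6% fell, shares that stand beside each list below too. Over all 15 lists, 165 of 215 genes tested rose (76.7%) and 7 fell (3.26%). The 1 or 2 falls of a single list do not stand out from all genes. Esam, an adhesion molecule of tight junctions, stood at 569.6 and 374 CPM against 10.6 and 9.95 CPM (log2 fold change 5.46 ± 0.29 (SE), adjusted p = 1.43e-76 by edgeR). Pecam1, an adhesion molecule of cell contacts, stood at 433 and 471 CPM against 13.2 and 12.9 CPM. Tjp1, the scaffold ZO-1, stood at 327 and 322 CPM against 33.2 and 35.8 CPM. F11r, the junction protein JAM-A, stood at 158 and 105 CPM against 5.77 and 4.34 CPM. Member values lay above those of the other cells in all 4. Cd99l2, an adhesion protein, fell, with 21.1 and 44.9 CPM against 143 and 143. Cdh2, the N-cadherin of neurons and mural contacts, fell, with 31.6 and 67.4 CPM against 136 and 141. DESeq2 called only the first of these. Cldn12 had 1 and 2 UMIs and was not called. Cgn and Marveld2, a further tight junction pair, had 0 UMIs in the members and were not called.

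Carriers of nutrients and ions rose in 20 of 23 tested cases, none fell, and the median log2 fold change was 4.20. DESeq2 called 19. Slc2a1, the glucose carrier GLUT1, stood at 823 and 1055 CPM against 36.8 and 39.2 CPM, with a log2 fold change of 4.60 ± 0.22 (SE), adjusted p = 3.65e-93 by edgeR. Slc7a5 and Slc3a2 form the carrier of large neutral amino acids and stood at 960.0 and 674 CPM against 47.6 and 43.4 and at 316 and 179.6 CPM against 46.6 and 46.0, respectively. Slc16a1, which carries lactate and ketone bodies, stood at 569.6 and 382 CPM against 36.0 and 33.7 CPM. Slc6a6, which carries taurine, stood at 1255 and 1579 CPM against 116 and 115 CPM. All of these lay above the other cells in both libraries. Slc16a4, an orphan monocarboxylate carrier, and Slc38a5, a glutamine carrier, had large folds (log2 5.65 and 5.63) from few UMIs, 15 and 10 for the first and 12 and 13 for the second. Mfsd2a, which carries lysophospholipids with docosahexaenoic acid, stood at 169 and 67.4 CPM against 9.86 and 9.54 CPM. Among the 3 not called were Slc5a6 with 3 and 2 UMIs and Slc29a1 with 2 and 1.

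Of 7 efflux pumps tested, 4 rose and 1 fell, with a median log2 fold change of 3.97. Abcb1a, the P-glycoprotein of the rodent barrier, stood at 496 and 651 CPM against 13.9 and 11.2 CPM (log2 fold change 5.52 ± 0.25 (SE), adjusted p = 7.45e-101 by edgeR). Abcg2 stood at 253 and 471 CPM against 10.8 and 12.8 CPM. Abcc4 stood at 63.3 and 82.3 CPM against 4.49 and 4.71 CPM and Abcc6 rested on 1 and 2 UMIs. Abcc5 fell, at 31.6 and 29.9 CPM against 79.5 and 89.8 CPM, a call that DESeq2 did not make. Abcb1b, a near relative of Abcb1a between which reads may be divided, had 0 and 1 UMIs.

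Receptors that carry proteins across the endothelium, and genes of caveolae, rose in 9 of 13 tested cases and fell in 2, at a median log2 fold change of 2.02. Fcgrt, the Fc receptor that carries IgG, stood at 454 and 254 CPM against 13.3 and 6.62 CPM. Tfrc, the transferrin receptor, stood at 369 and 187 CPM against 48.2 and 42.7 CPM. Insr and Lrp8 stood at 127 and 172 CPM against 34.3 and 38.6 and at 137 and 179.6 CPM against 41.1 and 42.2, respectively. Cav1, the coat protein of caveolae, stood at 401 and 382 CPM against 11.3 and 12.3 CPM and the caveolar cavin genes Ptrf and Sdpr at 411 and 374 CPM against 15.3 and 16.1 and at 200.4 and 307 CPM against 14.4 and 13.9, respectively. Lrp1, a receptor of many ligands that is abundant in other brain cells, fell, at 21.1 and 74.8 CPM against 135 and 144. Plvap, the diaphragm protein of fenestrated vessels, fell, at 10.5 and 7.48 CPM against 47.6 and 41.0. DESeq2 called neither. Plvap had 1 and 1 UMIs in the members and Lepr, the leptin receptor, 1 and 1.

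Genes of Wnt/beta-catenin signalling rose in 16 of 20 tested cases and none fell, at a median log2 fold change of 3.93. DESeq2 called 15. Among receptors and coreceptors, Fzd4 stood at 52.7 and 127 CPM against 4.26 and 4.56 CPM. Fzd6 stood at 116 and 127 CPM against 5.15 and 5.24 CPM. Adgra2, the coreceptor GPR124, stood at 84.4 and 97.3 CPM against 6.04 and 4.34 CPM. Reck, its partner, had 1 and 1 UMIs and Tspan12, the Fzd4 coreceptor, 10 and 9. Lef1, a nuclear factor of the pathway, stood at 264 and 254 CPM against 14.1 and 14.0 CPM (log2 fold change 4.17 ± 0.37 (SE), adjusted p = 6.69e-27 by edgeR). Ctnnb1, beta-catenin itself, stood at 686 and 704 CPM against 182 and 173 CPM. Targets and Wnt-dependent factors of the barrier were Foxq1, described above, and Sox17 at 306 and 202 CPM against 5.95 and 4.90 CPM. Foxf2 stood at 116 and 165 CPM against 4.93 and 4.83 CPM. Nkd1, a pathway inhibitor, stood at 327 and 209.6 CPM against 31.8 and 27.3 CPM. Axin2, a common readout of the pathway, had 3 and 5 UMIs and was not called (adjusted p = 0.293 by edgeR). Apcdd1 had 0 UMIs in the members and was not tested.

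Receptors of vessel growth and stability rose in 19 of 25 tested cases, none fell, and the median log2 fold change was 4.24. DESeq2 also called 19. Among VEGF receptors, Kdr stood at 485 and 569 CPM against 17.5 and 15.3 CPM. Flt4 stood at 105 and 82.3 CPM against 2.49 and 1.46 CPM. Nrp1, a coreceptor, stood at 359 and 322 CPM against 58.5 and 55.5 CPM, whereas Nrp2 did not differ detectably (log2 fold change -0.03 ± 0.46, adjusted p = 0.975 by edgeR). The angiopoietin receptor Tek stood at 285 and 404 CPM against 8.93 and 7.48 CPM. Ptprb, a receptor phosphatase that acts on Tek, stood at 781 and 1212 CPM against 27.0 and 29.6 CPM. The ligands were nearly without UMIs in the members: Angpt1 had 0, Angpt2 1 and 0 and Vegfa 0 and 1. For BMP and TGF-beta signalling, the receptors Eng and Acvrl1 stood at 506 and 471 CPM against 17.5 and 13.6 and at 200.4 and 232 CPM against 5.86 and 5.31, respectively, and the target gene Id1 at 897 and 936 CPM against 24.1 and 21.0 CPM. S1pr1, the sphingosine-1-phosphate receptor, was higher in the library labelled female, at 274 and 606 CPM against 31.2 and 40.7 CPM, and above the other cells in both. Pdgfb, the ligand by which endothelium recruits pericytes, stood at 179 and 232 CPM against 12.7 and 12.1 CPM. Aplnr, the apelin receptor, rested on 6 and 13 UMIs (log2 fold change 5.72 ± 0.81).

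Notch genes rose in 6 of 9 tested cases and none fell, at a median log2 fold change of 3.16. The receptors Notch1 and Notch4 stood at 116 and 135 CPM against 12.8 and 14.7 and at 63.3 and 74.8 CPM against 5.51 and 5.43, respectively. The ligands Dll4 and Jag1 stood at 52.7 and 29.9 CPM against 1.51 and 1.76 and at 52.7 and 52.4 CPM against 4.13 and 5.72, respectively. The target gene Hes1 stood at 369 and 217 CPM against 17.9 and 16.2 CPM. The ligand values rest on 4 to 7 UMIs a library. Heyl, a target gene used by mural cells, had 0 UMIs.

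Transcription factors of the endothelium gave the list with the highest median, a log2 fold change of 4.82, and 21 of 23 tested rose and none fell, by DESeq2 as well. The ETS factors Erg and Fli1 stood at 94.9 and 119.7 CPM against 3.86 and 3.59 and at 211 and 202 CPM against 5.29 and 4.19, respectively. The SOX factors Sox7 (4 and 7 UMIs), Sox17 (29 and 27) and Sox18 (9 and 9) were all called. Tal1 had the largest fold of the list (log2 5.78 ± 1.05) from 3 and 8 UMIs. Epas1, the hypoxia factor HIF-2 alpha, stood at 1065 and 1212 CPM against 49.8 and 53.7 CPM. Klf4, which like Klf2 responds to flow, stood at 433 and 434 CPM against 16.6 and 11.4 CPM. Mecom stood at 137 and 225 CPM against 4.13 and 4.42 CPM. Ets2 and Nr2f2 were not called, with log2 fold changes of 0.79 ± 0.38 and -0.14 ± 0.36 (adjusted p = 0.13 and 0.814 by edgeR). Nr2f2, a factor of veins, is also present in neurons of this region, at 122 and 102 CPM in neuron-gated cells.

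**Figure D3:**
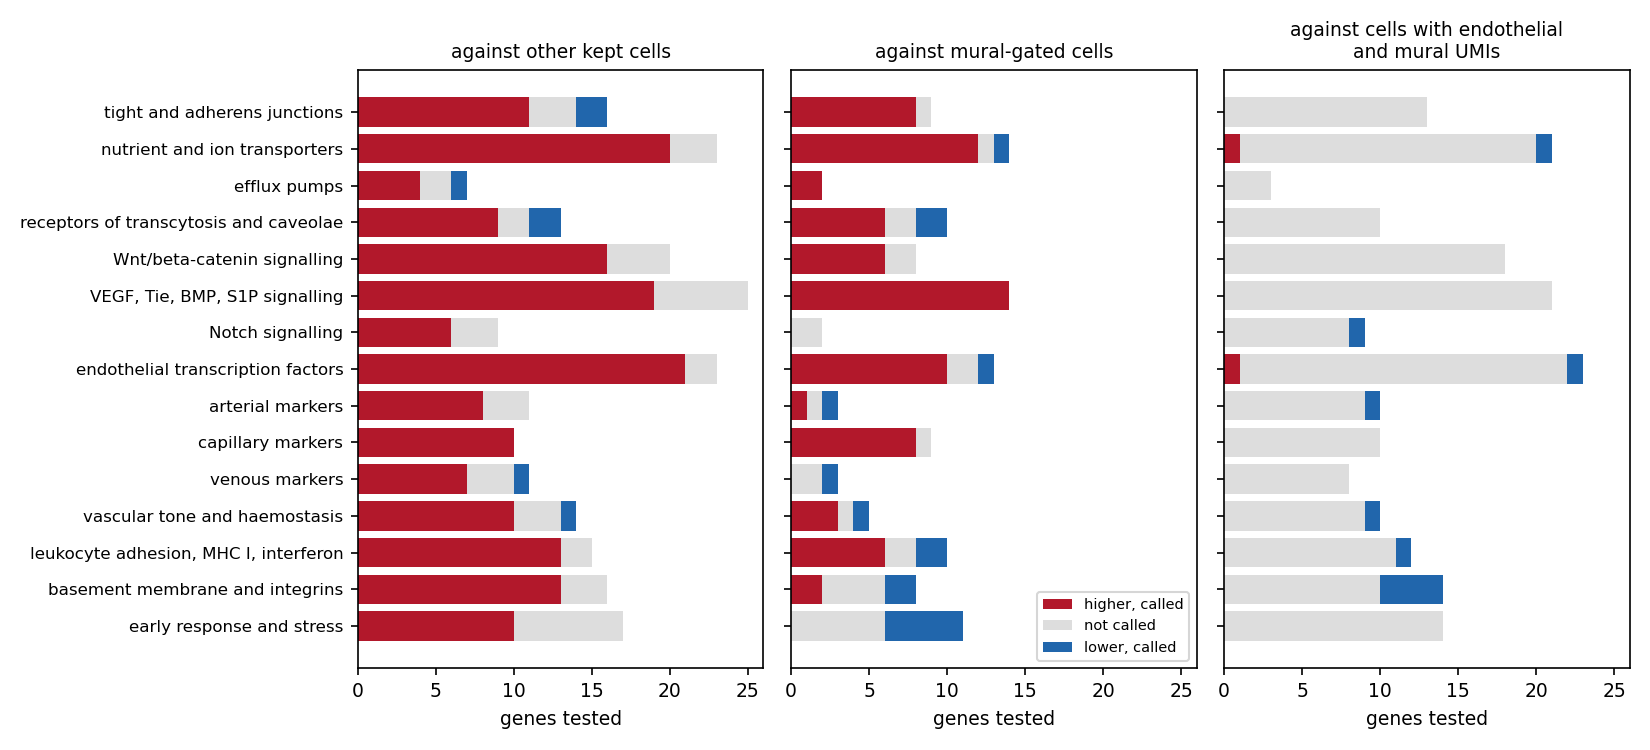
Number of genes tested in each of 15 gene lists (x axis, stacked bars), split into higher, not called and lower in the endothelial-gated cells at an edgeR adjusted p of 0.05, for 3 comparison sets (panels). Higher calls fill most of each list against other kept cells and against mural-gated cells, except in the Notch, arterial, venous, basement membrane and early response lists of the latter, and 2 genes are higher against cells with both marker sets.

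Markers of vessel segments were looked at over all members and cell by cell. Against other kept cells, 10 of 10 capillary markers tested rose (median log2 fold change 3.78), 8 of 11 arterial ones rose (4.07), and 7 of 11 venous ones rose and 1 fell (3.96). Spock2, a proteoglycan, stood at 2553 and 2582 CPM against 506 and 484 CPM. Cxcl12, a chemokine, stood at 1097 and 943 CPM against 41.8 and 34.7 CPM. Itih5 stood at 274 and 427 CPM against 19.9 and 15.4 CPM. Rgcc stood at 264 and 284 CPM against 17.9 and 16.8 CPM. These 4 are listed as capillary markers. Among arterial markers, the semaphorin Sema3g stood at 42.2 and 127 CPM against 2.18 and 3.11 CPM. Alpl, a phosphatase, stood at 52.7 and 59.9 CPM against 2.49 and 2.84 CPM. Efnb2, an ephrin ligand, stood at 94.9 and 74.8 CPM against 17.5 and 19.6 CPM. Mgp, a matrix protein of large vessels, was called by edgeR (log2 fold change 4.07 ± 0.38 (SE), adjusted p = 3.7e-24) but not by DESeq2 (adjusted p = 0.852). It had 0 and 59 UMIs in the members, 53 of the 59 in 1 cell, and the log2 fold was -1.49 in the library labelled male alone. Among venous markers, Vwf, the von Willebrand factor, stood at 84.4 and 217 CPM against 3.20 and 2.96 CPM. Slc38a5 stood at 127 and 97.3 CPM against 3.24 and 1.42 CPM. Tmem252 stood at 42.2 and 52.4 CPM against 0.711 and 1.497 CPM. Ackr1, a chemokine scavenger of venules that neuron-gated cells also hold here (95.1 and 89.9 CPM), had 0 UMIs in the members against 72.5 and 70.9 CPM and was called lower by edgeR, not by DESeq2 (adjusted p = 0.405).

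A UMI of an arterial marker was found in 16 of 33 (48.5%, 30.8 to 66.5) and 23 of 37 (62.2%, 44.8 to 77.5) members, and of a venous marker in 21 (63.6%, 45.1 to 79.6) and 26 (70.3%, 53.0 to 84.1), with exact Clopper-Pearson 95% intervals. Both kinds were found in 11 and 18 members and neither in 7 and 6. Neuron-gated cells, at a median of 9156 and 9591 UMIs, held an arterial marker UMI in 38.8% and 42.6% and a venous one in 79.0% and 78.9%. Nr2f2 and Ackr1, which neurons hold here, are on the venous list. Without those 2, left out after their values were seen, a venous marker was found in 60.6% and 64.9% of members and 14.8% and 16.9% of neurons. With every cell thinned to 2000 UMIs and the whole lists, arterial markers were found in 39.4% and 48.6% of members and 11.6% and 11.3% of neurons, and venous ones in 57.6% and 54.1% of members and 35.0% and 31.8% of neurons. At that depth arterial markers were found in 60.0% and 60.9% of mural-gated cells and in 60.3% and 61.7% of cells with both marker sets, above the members' shares. Venous markers of the whole list were found in 60.0% and 56.5% of mural-gated cells and in 62.9% and 54.2% of cells with both marker sets, close to or above the members' shares. Without Nr2f2 and Ackr1 at that depth, a venous marker was found in 54.5% and 48.6% of members. The shares were then 33.3% and 39.1% in mural-gated cells and 48.3% and 44.2% in cells with both marker sets. Both lay below the members' shares, with exact 95% intervals that overlap theirs. Few members held many of either: 2 and 6 members held 10 or more arterial UMIs, and 1 and 1 held 10 or more venous UMIs. In the library labelled male, the member with most arterial UMIs held 26, 19 of them Gkn3, and 0 venous UMIs. In the library labelled female, the first held 65 arterial UMIs, 53 of Mgp with 4 of Fbln5 and 3 of Edn1, and 0 venous ones, and the second held 23, 11 of Gkn3 with 3 of Efnb2 and 2 of Bmx, and 2 venous ones. The members with most venous UMIs held 15 and 39, of which Vwf gave 5 and 15, Nr2f2 2 and 7, and Slc38a5 3 and 4, beside 1 and 0 arterial UMIs. No member held 10 or more of both.

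**Figure D4:**
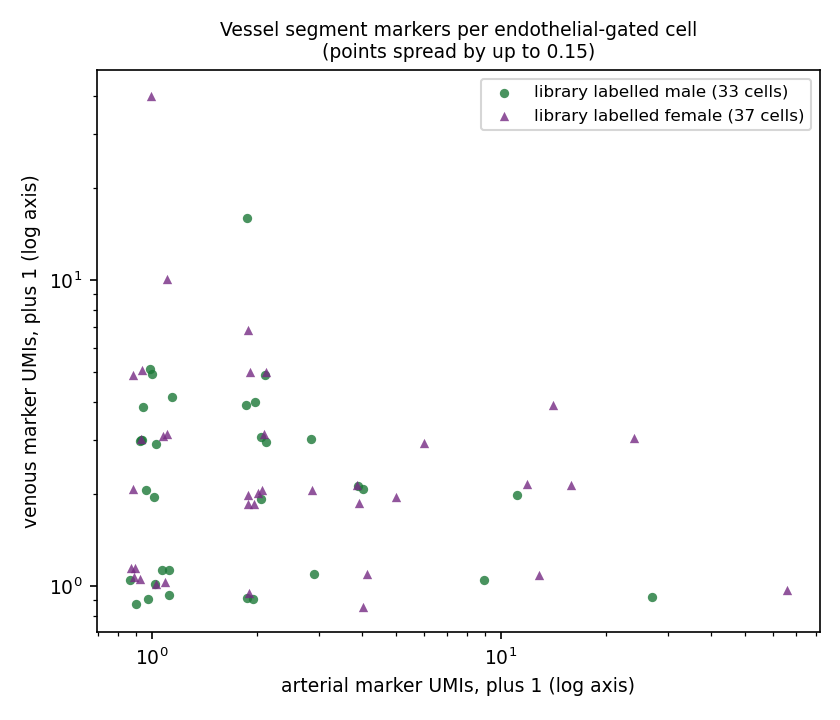
UMIs of the arterial list (x axis) and of the venous list (y axis), plus 1, in each of the 33 and 37 endothelial-gated cells, on log axes; each point is a cell. Members with 10 or more UMIs of 1 list hold at most 3 of the other.

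Across the 10 of 15 lists in which no gene fell by edgeR, none of 169 entries was lower at an unadjusted p under 0.05, and DESeq2 called none lower. These lists were singled out for having no lower call, which largely fixed this outcome. In the remaining lists, 3 junction genes, 3 genes of transcytosis, 1 efflux pump, 1 venous marker and 1 gene of vascular tone were lower at that p. Genes of vascular tone and haemostasis rose in 10 of 14 tested cases and fell in 1, at a median log2 fold change of 3.48. Nos3, the endothelial nitric oxide synthase, stood at 189.9 and 179.6 CPM against 6.44 and 5.05 CPM (log2 fold change 4.99 ± 0.49 (SE), adjusted p = 1.97e-22 by edgeR). Thbd, thrombomodulin, stood at 158 and 179.6 CPM against 6.48 and 5.35 CPM. Edn1, the vasoconstrictor endothelin-1, stood at 84.4 and 127 CPM against 4.09 and 4.00 CPM. Gucy1a3, a subunit of the nitric oxide receptor that mural cells express, fell, at 10.5 and 7.48 CPM against 55.5 and 53.1 CPM, and DESeq2 did not call it.

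Genes of leukocyte adhesion, antigen presentation and interferon response rose in 13 of 15 tested cases and none fell, at a median log2 fold change of 3.90. Icam2 stood at 158 and 59.9 CPM against 2.40 and 2.10 CPM. Ifitm3, an antiviral membrane protein, stood at 707 and 711 CPM against 21.6 and 20.1 CPM. B2m, the light chain of MHC class I, stood at 665 and 868 CPM against 88.7 and 63.0 CPM. Sele and Selp, the selectins of inflamed endothelium, had 0 UMIs in members and in all other kept cells. Icam1 had 3 and 0 UMIs and Vcam1 5 and 8. Ifitm1 stood at 10.5 and 7.48 CPM against 6.53 and 9.17 CPM and was not called. Vcam1 and Ifitm2 were called higher, but had log2 fold changes of -0.66 and -0.53 with the gated classes weighted equally. These classes are neurons, oligodendrocytes, astrocytes, microglia, fibroblasts and mural cells, each gated on few genes. The mural class has no endothelial limit, so it includes cells with both marker sets. It holds 104 and 120 cells, and the fibroblast class 9 and 21.

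Basement membrane and integrin genes rose in 13 of 16 tested cases and none fell, at a median log2 fold change of 3.12. Fn1, fibronectin, stood at 569.6 and 801 CPM against 22.6 and 19.2 CPM. Sparc stood at 2004 and 2073 CPM against 252 and 276 CPM. The collagen IV chains Col4a1 and Col4a2 stood at 169 and 209.6 CPM against 13.9 and 14.6 and at 200.4 and 269 CPM against 29.2 and 39.1, respectively. The integrins Itga6 and Itgb1 stood at 285 and 314 CPM against 17.9 and 20.4 and at 148 and 187 CPM against 56.0 and 54.2, respectively. Lamb1, a laminin chain, had 0 UMIs in the members. Nid1 and Lamc1, which link and build the basement membrane, were called higher here, but lower with the gated classes weighted equally (log2 fold change -1.90 and -0.87).

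Early response and stress genes, which dissociation is known to raise, were higher in 10 of 17 tested cases, and none fell. The median log2 fold change was 1.87, the lowest of the 15 lists. Hspb1, a small heat shock protein, stood at 401 and 337 CPM against 13.4 and 9.43 CPM. Ier2 stood at 295 and 239 CPM against 27.9 and 12.4 CPM. Dusp1 stood at 232 and 247 CPM against 38.3 and 23.4 CPM. Jun stood at 686 and 292 CPM against 126 and 58.3 CPM. Jun and Ier2 were lower in the library labelled female both in the members and in the other cells. Fosb, Atf3, Nr4a1, Egr1 and Jund were not called, nor were the heat shock genes Hspa1a and Hspa1b. The directions changed with the mix of comparison cells. Equal weights give the mural class, which includes cells with both marker sets, as much weight as neurons. With the gated classes weighted equally in place of all other kept cells, Junb, Zfp36, Egr1 and Jund were lower in the members (log2 fold change -1.15, -0.90, -0.83 and -0.51, each called by edgeR), and Fos, Jun and Btg2 had log2 fold changes of -0.47, -0.16 and -0.37 without a call. How far this RNA arose during dissociation was not tested.

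Mural-gated cells, the other cells of the vessel wall, held 5 or more mural gate UMIs, at most 2 endothelial and at most 3 neuronal ones. There were 15 and 23, with a median of 3098 and 3097 UMIs. Of 1653 genes that passed the filter on low counts, edgeR called 510 (30.9%), 277 (16.8%) higher and 233 (14.1%) lower in the members, and DESeq2 called 89 (5.38%), 46 (2.78%) higher and 43 (2.6%) lower. The mural-gated cells were not pure: fibroblast markers summed to 6968 and 3901 CPM in them against 10.5 and 15.0 CPM in the members, and oligodendrocyte markers to 13863 and 13212 CPM against 3829 and 5621. The part of these in the lower genes was not tested. The 8 genes furthest below in the members had 0 UMIs in them. Acta2 and Tagln, contractile genes of arterial smooth muscle, stood at 1201 and 1544 and at 314 and 742 CPM in mural-gated cells, which makes them at least 107-fold and 43.7-fold lower in the members. Igfbp2, Nupr1 and the fibroblast matrix genes Col1a2, Dcn, Col3a1 and Fmod were at least 43.7-fold to 164-fold lower. In the other direction, Pglyrp1, a peptidoglycan recognition protein, stood at 791 and 718 CPM in the members and at 0 in mural-gated cells, at least 34.4-fold higher. Sema3c, the sialomucin Podxl and the nuclear adaptor Lmo2, also at 0 in mural-gated cells, stood at 443 and 621, 433 and 591 and 496 and 516 CPM, each at least 23.3-fold higher. DESeq2 called all of these genes.

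The other 4 of the 8 highest were hemoglobin genes. Hbb-bs stood at 26679 and 8951 CPM in the members and 18.5 and 23.9 CPM in mural-gated cells, and Hba-a1 at 20782 and 5688 against 55.5 and 0. The members with 10 or more hemoglobin UMIs numbered 3 and 3. Of the 1970 and 760 UMIs of Hba-a1, 774 and 725 came from 1 cell of each library. Hemoglobin is carried by red blood cells, and the part of such cells in this result was not tested. Without the cells of 10 or more hemoglobin UMIs, edgeR called 459 genes in place of 510. Hba-a1 and Hba-a2, and Hbb-bs and Hbb-bt, are near copies, and how reads were divided between them is not known.

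By list, junction genes (8 of 9 tested), carriers (12 of 14), receptors of vessel growth (14 of 14), transcription factors (10 of 13), capillary markers (8 of 9) and both efflux pumps tested were higher in members than in mural-gated cells, against 16.8% of all genes. DESeq2 called 2, 7, 5, 2, 1 and 1 of these. Pecam1 had 0 UMIs in mural-gated cells and was at least 20.9-fold higher in the members. Ptprb and Egfl7, an endothelial matrix factor, stood at 781 and 1212 CPM against 18.5 and 0 and at 1382 and 1422 CPM against 0 and 11.97, respectively. Caveolar genes were divided: Cav1 and Sdpr were higher, the cavin gene Prkcdbp lower (log2 fold change -1.96 ± 0.43), and Ptrf not called. Basement membrane genes were as often lower (Nid1 and Lamc1) as higher (Fn1 and Itga6), 2 of 8 each. Of all genes, 14.1% were lower and 16.8% higher. Ifitm1 was lower, at 10.5 and 7.48 CPM against 536 and 838, with a log2 fold change of -6.12 ± 0.62 (SE), adjusted p = 9.45e-21 by edgeR, and Ifitm2 was lower as well. Early response genes were lower in 5 of 11 tested cases, beside 14.1% of all genes: Fos, Junb, Jund, Egr1 and Btg2. None was higher. Fos stood at 274 and 195 CPM in the members and 1331 and 1209 in mural-gated cells. At an unadjusted p under 0.05 by edgeR, 1 was higher and 6 lower, and DESeq2 called none.

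The cells with both marker sets were compared with the members after they were seen to outnumber them. They held a median of 3670 and 3978 UMIs. Of 5661 genes tested, edgeR called 184 (3.25%), 50 higher (0.883%) and 134 lower (2.37%) in the members. DESeq2 called 12 (0.212%), of which 2 (0.0353%) were higher and 10 (0.177%) lower. The lower genes include those of mural cells, a direction that the mural limit of the gate fixes: Pdgfrb, the receptor that pericytes need for recruitment, was at 0 UMIs in the members against 512 and 564 CPM, at least 41.1-fold lower. Atp13a5, Zic1 and Heyl were at 0 as well, at least 15.6-fold, 12.2-fold and 8.84-fold lower. Higd1b, with 3 UMIs in the members, was lower by 47.5-fold (exact 95% interval 16.2 to 231) and stood at 662 and 589 CPM in the other set, Rgs4 by 82.1-fold (exact 95% interval 14.7 to 3251) and Notch3 by 53.5-fold (exact 95% interval 9.51 to 2120.1). DESeq2 called these 3 of the 8 lowest.

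Over all 15 lists, 12 of 182 genes tested were called between these 2 sets (6.59%), 2 higher and 10 lower in the members, beside 3.25% of all genes, and DESeq2 called 1. The calls came from 7 of the lists. In the other 8, of 13 junction genes, 3 efflux pumps, 10 genes of transcytosis, 18 Wnt genes, 21 receptors of vessel growth, 10 capillary markers, 8 venous markers and 14 early response genes tested, none was called, and the list medians lay between -0.11 and 0.19 on the log2 scale. At an unadjusted p under 0.05, 9 of the 97 entries of these 8 lists, which were singled out for having no call, were higher and 7 lower, and DESeq2 called none. A missing call does not show equal levels: the log2 fold change was 0.24 ± 0.17 (SE) for Cdh5 and 0.30 ± 0.13 for Slc2a1. Klf2 and Slc40a1 were called higher in the members (log2 fold change 0.47 ± 0.12 and 0.65 ± 0.19, adjusted p = 0.0232 and 0.042 by edgeR) and Ets1 lower (-0.79 ± 0.21), none of them by DESeq2. Basement membrane genes were lower in 4 of 14 cases, beside 2.37% of all genes: Nid1 (log2 fold change -2.38 ± 0.34), Lamc1 (-1.56 ± 0.32), Col4a1 (-0.86 ± 0.22) and Col4a2 (-0.70 ± 0.20). Gja4, Gucy1a3 and Ifitm1 were lower too, and each was also lower than in mural-gated cells.

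The highest genes of that comparison were not endothelial. Olig1, a factor of the oligodendrocyte lineage, stood at 179 and 172 CPM in the members and 19.8 and 24.5 in cells with both marker sets, and Ptprz1 and Slc6a11, which astrocytes and glial precursors express, at 232 and 112 CPM against 27.8 and 26.2 and at 158 and 292 CPM against 81.3 and 96.1, respectively. Kcnj10, Ttyh1, Mapt and Nnat were also among the 8 highest. Of those named here, DESeq2 called Olig1 only. Summed oligodendrocyte markers were 3829 and 5621 CPM in the members and 2030 and 2841 CPM in the cells with both marker sets, and the other cells' part in these 8 genes was not tested.

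The libraries were set side by side within the members without a test, since each label has 1 library. Of 627 genes with 30 or more UMIs in either, 6 were 3-fold or more higher in the library labelled male and 10 in the library labelled female, apart from sex-linked genes. Gnb2, a G protein subunit, was spread over 26 and 19 cells with 580 and 187 CPM, a ratio of 3.10 (exact 95% interval 1.90 to 5.19, counting error only), while the other kept cells had a ratio of 1.002. Of the other 5, Snhg11, Meg3 and Hcrt owed 50 of 59, 96 of 105 and 33 of 54 UMIs to 1 cell, and Hba-a1 and Hba-a2 are hemoglobin genes. Cdkn1a, the cell cycle inhibitor p21, had 10 and 63 UMIs in 9 and 25 cells, 4.47-fold (2.28 to 9.77) higher in the library labelled female. Ddit4, a stress-induced inhibitor of mTOR, had 8 and 51 UMIs in 8 and 25 cells, 4.52-fold (2.13 to 11.04) higher there. Timp3, a protease inhibitor, had 20 and 102 UMIs, 38 of the latter in 1 cell. In the other kept cells the male to female ratios of Cdkn1a, Ddit4 and Timp3 were 0.653, 0.708 and 0.764. Mgp and Ptgds owed 53 of 59 and 29 of 39 UMIs to 1 cell of the library labelled female. Sex and pool cannot be told apart here.

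**Figure D5:**
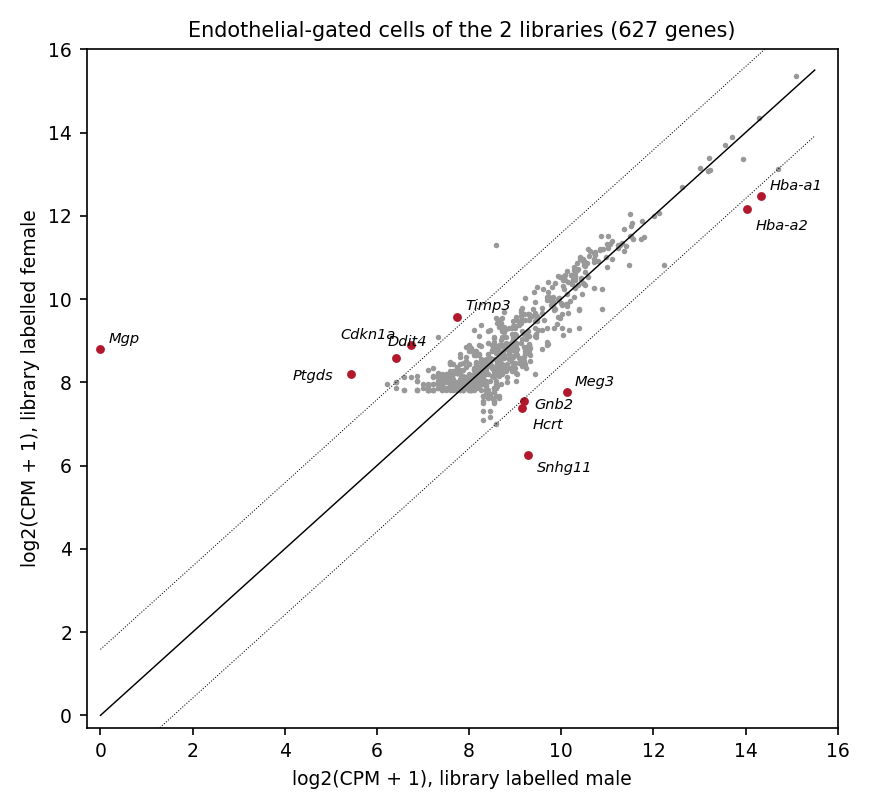
Level of each of 627 genes in the endothelial-gated cells of the library labelled male (x axis) and labelled female (y axis) as log2 of CPM plus 1; the solid line marks equal levels, the dotted lines 3-fold, and red points are the named genes. Most genes lie between the dotted lines, and Mgp, with 0 UMIs in the library labelled male, lies on the left edge.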

How the data were processed

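The deposited files hold raw UMI counts per gene and cell barcode from Cell Ranger 2.2.0 with the mm10 genome, per the submitters' processing notes. No source used here states which annotation release served, how cells were called or whether strand counted, so reads of near-identical, overlapping and antisense genes may be divided between them. Gene positions were matched by ID in 98.8% of 28692 genes. The libraries held 3439 and 3793 barcodes with 23151801 and 27437142 UMIs. Cells needed 500 genes and at most 20% mitochondrial UMIs, which removed 163 in each. Counts were summed per library and set of cells, filtered with filterByExpr, scaled by TMM and tested with edgeR 4.0.16 (R 4.3.3), quasi-likelihood, library as a block, Benjamini-Hochberg threshold 0.05. The libraries are paired because both sets of cells come from the same library. The spread was shared across genes, since 1 residual degree of freedom remains. In counts simulated for the comparison with other kept cells, over 14217 genes, 16% of genes raised 2-fold, 80% of those raised 4-fold and 100% of those raised 8-fold were called, and 60% of those lowered 8-fold. The simulated spread was set below the fitted spread, so these shares may be too high. The fitted coefficient of variation was 13.6% here, 21.1% against mural-gated cells and 11.9% against cells with both marker sets. Simulated for the mural-gated cells and the cells with both marker sets, 100% and 100% of genes raised 8-fold were called. Of genes lowered 8-fold, 20% and 60% were called, and of those lowered 16-fold, 28% and 36%. DESeq2 1.42.0, other gates, thinning to 2000 UMIs, doublet removal, stricter mitochondrial limits and equal weights for gated classes were alternatives. Doublets were kept in the main values. Scrublet in scanpy 1.11.5 marked 9 and 13 cells at its own threshold, too few to have worked, so the alternative removed the 95 and 115 highest scores (0.8% per 1000 barcodes).

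The 9 gate genes are description only. The text names the 20 highest and 6 lowest called genes (8 and 8 in the other comparisons). Each had the same direction in both libraries and 100 CPM or more in the higher set of both. The 3 highest and the lowest of each list are named as well. Other list members were named for their role with their values known. Members and lists were chosen with earlier results of these data known. Where a gene had 0 UMIs in a set, the fold is a bound from 3 counts over both libraries. Folds of a single library, with 0.5 counts added, and the alternatives at the end are not bounded. Some genes are not reported here, though the counts over all genes and over lists include them.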

Additional observations from a re-analysis of the deposited data

Results flagged for a closer look

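Of 222 genes of the lists or of the highest and lowest sets examined against other kept cells, 8 were those for which the members lay above the other kept cells in 1 library and below them in the other, with 1 library for each label and no test of the difference. The log2 folds, library labelled male first, were 0.76 and -0.58 for the nucleoside carrier Slc29a1, 0.66 and -0.27 for the vitamin carrier Slc5a6, -0.66 and 0.13 for the Wnt factor Tcf7l2, -0.50 and 0.24 for the venous factor Nr2f2, and -0.65 and 0.46 for the coreceptor Nrp2. They were -1.49 and 5.18 for Mgp, -0.080 and 2.35 for the collagen gene Col18a1 and 2.02 and -0.84 for the early response gene Fosb. Of these, only Mgp was called by edgeR over both libraries, and 53 of its 59 UMIs came from 1 cell.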

How the results depend on the processing

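The p-values rest on 2 pools of littermates and on a spread shared over genes, so counts of calls move with the tool. Against other kept cells, 3256 calls became 1918 by DESeq2 and 1280 with the gated classes weighted equally, where 3177 genes could be tested. Against mural-gated cells, 510 became 89 by DESeq2, 277 thinned to 2000 UMIs and 232 at a mitochondrial limit of 10%. Against cells with both marker sets, 184 became 12 by DESeq2 and 90 when thinned. Without the replicate block, that is without the pairing of both sets by library, the counts were 4085, 417 and 89. Leaving out either library gives folds and no test. The share of kept cells in the gate was 1.74% and 1.54% when the gate was applied after thinning. At 2 or more UMIs, an arterial marker was found in 21.2% and 35.1% of members and a venous one in 37.8% in the library labelled female.

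Of the genes named against other kept cells, 204 of 222 kept their direction and side of the threshold by DESeq2, 111 of 143 with classes weighted equally and 185 of 212 when thinned. Against mural-gated cells this was 56 of 100 by DESeq2, and against cells with both marker sets 5 of 25. Log2 fold changes that turned sign were as follows, and the cause was not tested. With classes weighted equally the value was -3.82 for Ifitm1, -0.51 for Jund, -0.66 for Vcam1, -0.75 for Edn3, -1.43 for Ednrb, -0.53 for Ifitm2, -0.87 for Lamc1, -1.90 for Nid1, -2.91 for Itgb5, -0.47 for Fos, -0.16 for Jun, -1.15 for Junb, -0.83 for Egr1, -0.90 for Zfp36 and -0.37 for Btg2. When thinned the value was -7.58 for Gja4, -0.12 for Ifitm1, -0.29 for Jund, 0.37 for Slc5a6, -6.43 for Abcb1b, -7.16 for Lepr, 0.066 for Nrp2, -1.06 for Apln, -0.19 for Ednrb and -0.38 for Itgb5. Without cells of 10 or more hemoglobin UMIs the value was -8.75 for Gja4, 0.025 for Slc5a6, -7.89 for Abcb1b, 0.086 for Nrp2, -0.59 for Col18a1 and -0.051 for Egr1. At a mitochondrial limit of 10% the value was 0.031 for Slc5a6, 0.23 for Nrp2, -0.15 for Smad7 and -8.64 for Apln. The values from -6.43 to -8.75 are fitted folds, not bounds, and none was called (adjusted p = 0.537 to 0.713 by edgeR). They include Abcb1b and Lepr, which had few UMIs in the members, and their size is not a measured fold. With doublets removed the value was 0.033 for Slc5a6. With the stricter gate the value was 0.054 for Nrp2 and -0.89 for Apln. With 10 or more marker UMIs in the gate the value was 0.016 for Nrp2. With 3 or more the value was -0.00040 for Apln. With RLE scaling the value was 0.037 for Nrp2. By DESeq2 the value was 0.45 for Marveld2. Without the filter on low counts the value was -0.0029 for Apln. Without the library labelled female the value was -1.49 for Mgp, and without the library labelled male 5.18.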
